A study of Mus musculus with 2 samples.

Results

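The 10 genes described here encode brakes on signalling in T cells: 6 dual specificity phosphatases (*Dusp1*, *Dusp2*, *Dusp4*, *Dusp5*, *Dusp6* and *Dusp10*) and 4 regulators of G protein signalling (*Rgs1*, *Rgs2*, *Rgs10* and *Rgs16*). They were taken as a fixed list of 10 of the 28009 genes in the count tables, chosen with earlier results of these data known. All 10 were detected in both tissues. IL-10-producing CD4+ T cells, sorted as eGFP+ cells with Foxp3+ cells included, came from the small intestine and spleen of IL-10eGFP Foxp3mRFP double reporter mice aged 8 to 16 weeks. All mice had received 2 injections of 15 µg of anti-CD3 (clone 2C11), an antibody that activates T cells in vivo, and were killed 4 h after the second, so there was no untreated group. Each tissue gave 1 droplet-based 10X library, which is 1 sample per group. How many mice were pooled is not given in the sources used here, and the eGFP reporter, not IL-10 protein, chose the cells.

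Dual specificity phosphatases of this family remove phosphate from the threonine and tyrosine of active MAP kinases (ERK, JNK and p38), and most are themselves switched on by the pathway they shut off. Regulators of G protein signalling speed up GTP hydrolysis by the alpha subunits of heterotrimeric G proteins and so shorten signals from chemokine and other G protein-coupled receptors. In lymphocytes, *Rgs1* is known as a brake on migration towards chemokines and as a gene of T cells in the gut, and *Dusp1*, *Dusp2* and *Rgs2* are known as genes that respond early to stimulation.

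In the GRCm38 annotation all 10 are protein-coding genes. *Rgs1* lies at chr1:144242296-144249242 and *Rgs2* at chr1:143999338-144004161, both on the minus strand, and *Rgs16* at chr1:153740349-153745468 and *Dusp10* at chr1:184013302-184075636 on the plus strand of the same chromosome. The other plus-strand genes are *Dusp2* (chr2:127336159-127338376), *Dusp4* (chr8:34807297-34819894), *Dusp6* (chr10:99263231-99267489) and *Dusp5* (chr19:53529109-53542431). *Rgs10* (chr7:128373621-128418758) and *Dusp1* (chr17:26505590-26562128) are on the minus strand.

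Promoter sequences from RefSeq (GRCm38.p6) matched 8 of the 10 genes by symbol, those of *Dusp4* and *Rgs1* being the exceptions. The stretch from 250 to 51 bases before the start is 200 bases long and clear of annotated exons. It is shown 5′ to 3′ on the strand of the gene for *Rgs10* and for 3 other genes. These 3 were at least 2-fold higher in small intestine, and *Rgs10* was not. The start is that of the RefSeq entry, and for *Dusp1* and *Rgs10* the stretch lies inside the gene span given above. This start was matched in 3 of 6 annotated transcripts of *Dusp1* and 1 of 6 of *Rgs10*. Capitals mark the cyclic AMP response element (CRE, TGACGTCA), its shorter core TGACG and the CArG box, the binding motif of serum response factor, on either strand.
Dusp1, chr17:26508523-26508722, minus strand: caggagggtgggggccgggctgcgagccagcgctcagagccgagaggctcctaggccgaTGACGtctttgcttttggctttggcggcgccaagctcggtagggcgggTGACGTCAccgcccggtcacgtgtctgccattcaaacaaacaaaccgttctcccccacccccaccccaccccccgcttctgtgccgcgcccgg
Dusp5, chr19:53528895-53529094, plus strand: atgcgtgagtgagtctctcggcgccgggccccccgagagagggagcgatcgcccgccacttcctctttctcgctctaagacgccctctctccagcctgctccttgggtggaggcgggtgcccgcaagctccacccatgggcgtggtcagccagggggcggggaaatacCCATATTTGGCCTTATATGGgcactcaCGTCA
Rgs2, chr1:144004200-144004399, minus strand: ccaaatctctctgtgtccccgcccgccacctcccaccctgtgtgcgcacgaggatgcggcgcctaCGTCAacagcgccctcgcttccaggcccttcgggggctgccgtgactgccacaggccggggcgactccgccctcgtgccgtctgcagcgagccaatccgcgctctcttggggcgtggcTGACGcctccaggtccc
Rgs10, chr7:128418223-128418422, minus strand: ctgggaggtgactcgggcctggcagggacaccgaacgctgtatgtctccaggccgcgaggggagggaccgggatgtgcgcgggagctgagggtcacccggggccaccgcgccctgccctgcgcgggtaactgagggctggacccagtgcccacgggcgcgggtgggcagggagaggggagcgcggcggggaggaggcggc
The whole CRE was found in 1 of the 8 stretches, that of *Dusp1*, beside 0.828% of 32841 promoters of the same length, and it holds TGACG on both strands. TGACG was in 3 of 8 (*Dusp1*, *Dusp5* and *Rgs2*; 12.7% of all promoters), and the CArG box, present as a pair side by side in *Dusp5*, in 1 of 8 (1.16%). The AP-1 motif TGAGTCA was in 0 of 8 (3.61%), and the NFAT core GGAAA in 2 of 8 (*Dusp5* and *Dusp6*; 48.5%). The 3 higher genes printed above are those with TGACG. *Dusp6* and *Dusp10*, also at least 2-fold higher in small intestine but not printed, held 0 matches to the CRE, TGACG or CArG box. All matches describe the letters of the windows and no binding.

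The library of the small intestine held 1474 cell barcodes and 5693395 unique molecular identifiers (UMIs, each standing for 1 captured RNA molecule), and that of the spleen 1738 and 11103530, with 0 barcodes shared. After the quality filter and the removal of cells in G2/M, 1278 and 1469 cells were kept, with medians of 3696 and 5408 UMIs, a 1.46-fold difference in depth. Levels are UMIs summed over cells per 1000000 UMIs (CPM) with exact 95% Poisson intervals. Shares of cells with a UMI have exact Clopper-Pearson 95% intervals and were also taken after every cell was thinned to 2000 UMIs, which left out 108 shallower intestinal and 23 shallower splenic cells. With 1 library per tissue nothing can be tested. All intervals cover counting error only, and tissue, library and cell isolation cannot be told apart. For the intestine, the paper describes EDTA for the release of intraepithelial lymphocytes and collagenase for those of the lamina propria. Which of these fractions gave the library is not stated, so intraepithelial cells may be included. UMI counts were not compared between genes.

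The CD4+ sort was checked against markers. *Cd4* stood at 399 CPM in small intestine and 208 CPM in spleen, but 121 intestinal cells had UMIs of both *Cd8a* and *Cd8b1*. Of these, 106 formed most of a cluster of 131 cells. The number of splenic cells with both was 0, which follows from 0 splenic UMIs of *Cd8a*, while *Cd8b1* had 126 splenic UMIs (13.8 CPM). *Foxp3* had a UMI in 28 intestinal and 280 splenic cells, and Scrublet marked 11 and 2 of the kept cells as doublets. The G2/M filter did not remove all cycling cells: 4 cycling markers summed to 1655 CPM in kept splenic and 723 CPM in kept intestinal cells. A cluster of 212 splenic cells, led by *Hist1h2ap*, *2810417H13Rik* and *Rrm2*, had a median of 9637.5 UMIs. Because UMIs are summed, such deep cells weigh more in the splenic levels. The counts of the 10 genes past 2-fold between the tissues over all cells, and between states within a tissue, were the same without the CD8, *Foxp3* or doublet cells. Cells were grouped by state through clusters made without the 10 genes: clusters with a median *Ccl5* level of at least 1000 CPM were called Ccl5-high. *Ccl5* encodes a chemokine of effector and cytotoxic T cells. This state held 1109 intestinal cells (86.8%, 5 clusters) and 149 splenic cells (10.1%, 1 cluster). Within 500 to 2000 CPM lay 6 Ccl5-high and 119 other intestinal cells, and 5 and 75 splenic cells, so the boundary was less sharp among intestinal cells outside the state. The other intestinal cells were 1 cluster of 169, led by *Il17a*, with a median *Ccl5* level of 842 CPM.

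Of the 10 genes, 6 were at least 2-fold higher in small intestine than in spleen: *Dusp1*, *Dusp5*, *Dusp6*, *Dusp10*, *Rgs1* and *Rgs2*. None was 2-fold lower (0 of 10). Among the 9034 genes with at least 50 UMIs over both tissues, 10.4% were at least 2-fold higher and 13.6% at least 2-fold lower. Because the 10 were chosen with earlier results of these data known, the shares are set side by side as a description only. The median log2 ratio was 1.69 over the 10 genes and -0.02 over all genes. The state of the cells divided the list differently, since *Rgs16* and *Rgs10* differed most between Ccl5-high and other splenic cells and in opposite directions.

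Among the inducible nuclear phosphatases, *Dusp1*, which acts on JNK, p38 and ERK, stood at 567 CPM (546 to 588) in small intestine and 127 CPM (119.5 to 134) in spleen, 4.47-fold apart (4.18 to 4.79). It had a UMI in 76.0% of intestinal and 45.1% of splenic cells, and in 59.1% and 25.5% at equal depth. The tissues were thus far apart in both level and share. *Dusp5*, an ERK-specific nuclear phosphatase, stood at 346 CPM (330.4 to 363) and 84.3 CPM (78.4 to 90.4), a ratio of 4.11 (3.78 to 4.48). Its thinned share was 46.6% against 14.3%.

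*Dusp2* and *Dusp4*, the other nuclear members, differed little between tissues. *Dusp2*, long known as a phosphatase of activated T cells (PAC-1), stood at 562 CPM (541 to 583) and 439 CPM (425 to 453), a ratio of 1.28 (1.22 to 1.34). *Dusp4* stood at 16.7 CPM (13.3 to 20.7) and 13.5 CPM (11.3 to 16.1), and the interval of its ratio, 0.923 to 1.64, held 1. Its share of cells was lower in small intestine as deposited (5.95% against 7.15%) and higher at equal depth (3.42% against 2.01%), so no order is read from it.

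*Dusp6*, the cytoplasmic phosphatase selective for ERK, stood at 75.9 CPM (68.5 to 83.9) in small intestine and 17.9 CPM (15.3 to 20.9) in spleen, 4.24-fold apart (3.52 to 5.12). *Dusp10*, which prefers JNK and p38, stood at 63.4 CPM (56.6 to 70.7) and 25.1 CPM (22.0 to 28.6), 2.52-fold apart (2.12 to 3.004). Both were scarce transcripts, with a UMI in 14.4% and 10.9% of thinned intestinal cells and in 3.39% and 4.56% of splenic cells.

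The widest tissue differences were those of *Rgs1* and *Rgs2*. *Rgs1* stood at 1749.8 CPM (1713 to 1787) in small intestine and 260.3 CPM (249.97 to 271) in spleen, a ratio of 6.72 (6.42 to 7.04). It was found in 85.98% of thinned intestinal cells and 29.3% of splenic cells. *Rgs2*, which acts mainly on Gq, stood at 171 CPM (160 to 183) and 24.8 CPM (21.7 to 28.2), a ratio of 6.90 (5.96 to 8.03). Of all genes compared, 1.31% had a higher ratio than *Rgs1* and 1.28% a higher ratio than *Rgs2*.

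The remaining pair did not follow. *Rgs10*, a small family member that acts on Gi-class subunits, was over all cells the only 1 of the 10 with a ratio below 1, at 195 CPM (183 to 208) against 246 CPM (236 to 257) in spleen, 1.26-fold lower (1.17 to 1.36). Its direction turned within states, where it was higher in small intestine both in Ccl5-high cells (ratio 2.07, 1.61 to 2.70) and in other cells (ratio 1.51, 1.32 to 1.71). *Rgs16*, which acts on Gi and Gq, stood at 23.0 CPM (19.0 to 27.6) against 16.9 CPM (14.4 to 19.8), a ratio of 1.36 (1.06 to 1.74).

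**Figure D1:**
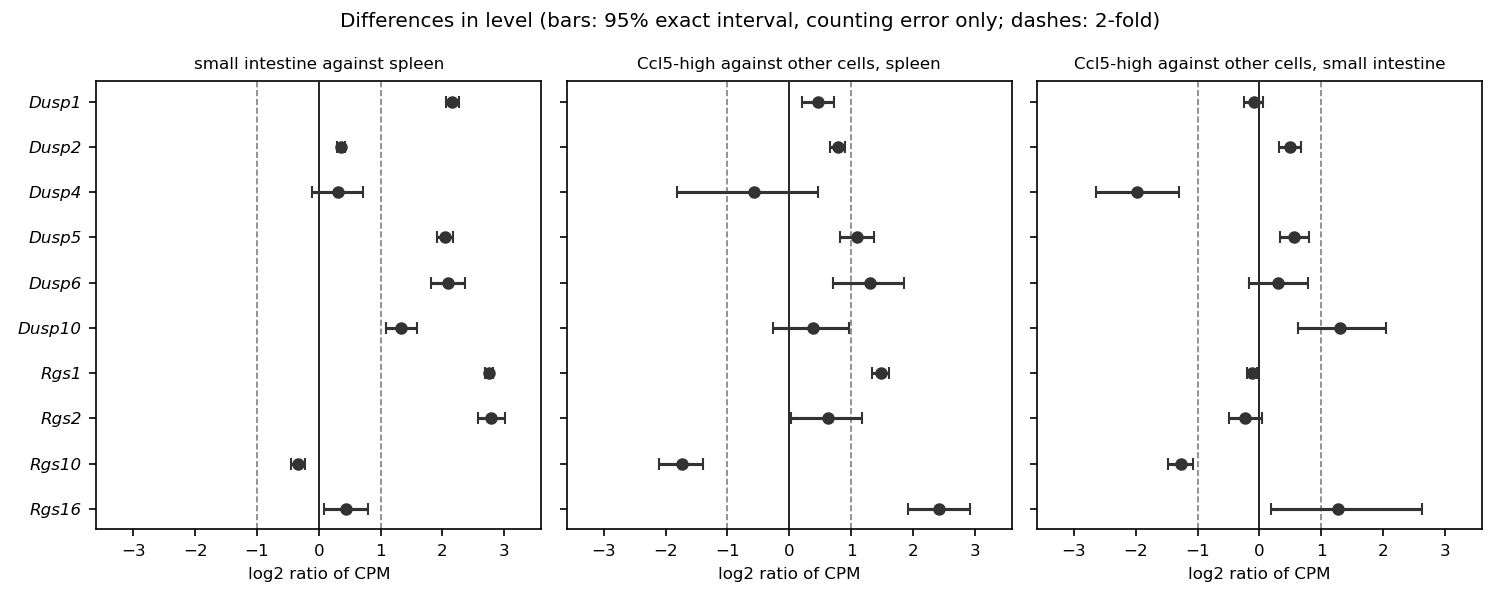
Log2 ratio of the CPM of each gene for small intestine against spleen (left) and for Ccl5-high against other cells of the spleen (middle) and small intestine (right). Points are ratios, bars exact 95% intervals from counting error and dashed lines 2-fold. In the left panel 6 genes lie right of the dashed line, in the middle panel *Rgs16* and *Rgs10* lie farthest out on opposite sides, and in the right panel *Dusp4* lies farthest left.

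The same preparation differed in a list of 16 immediate early and dissociation response genes. They summed to 5985 CPM in small intestine and 3314 CPM in spleen. Of the 14 with enough UMIs, 8 were at least 2-fold higher in small intestine and 0 lower, beside 10.4% and 13.6% of 9034 genes. Their median log2 ratio was 1.09. *Fosb* stood at 131 against 12.6 CPM, *Fos* at 444 against 102 CPM, *Btg2* at 459 against 120.2 CPM, *Jun* at 305 against 112 CPM and *Nr4a1* at 126 against 50.1 CPM. Part of the list is induced by stimulation through the T cell receptor and by tissue digestion alike. Its part in the levels of the 10 genes was not tested.

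Other genes of the same pathways were compared by fixed lists, beside 10.4% of 9034 genes at least 2-fold higher and 13.6% at least 2-fold lower in small intestine. Of 15 other *Dusp* genes 8 had enough UMIs, of which 0 were at least 2-fold higher and 2 at least 2-fold lower in small intestine: *Dusp7*, an ERK phosphatase of the cytoplasm, at 4.37 against 15.4 CPM and *Dusp14* at 1.59 against 4.91 CPM. Of 15 other *Rgs* genes 3 had enough UMIs (*Rgs3*, *Rgs14* and *Rgs19*), and none passed 2-fold in either direction (0 of 3). Among Sprouty and Spred genes, further inhibitors of the ERK pathway, 2 of 3 were lower, with *Spry1* at 4.97 against 36.9 CPM and *Spred1* at 5.17 against 11.2 CPM. For the kinases and transducers themselves, as for the lists above, the lists are too small to read the counts as different from these shares. Of 18 MAP kinase pathway genes 1 was higher (*Braf*, 13.7 against 5.89 CPM) and 1 lower (*Mapk11*, 0.795 against 19.4 CPM), with a median log2 ratio of 0.04, and of 11 G protein subunit genes 0 were higher and 1 lower (*Gnaq*, 3.77 against 8.84 CPM), with a median of 0.03. Others differed by less than 2-fold with intervals clear of 1 in either direction, such as *Gna13* (ratio 1.81, 1.67 to 1.96) and *Map2k3* (ratio 0.590, 0.522 to 0.667), both chosen after their values were seen.

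The Gi-coupled chemoattractant receptors, whose signals regulators of G protein signalling shorten, differed in both directions. Of 14 measured, 3 were at least 2-fold higher in small intestine and 8 at least 2-fold lower, beside 10.4% and 13.6% of 9034 genes. Their median log2 ratio was -1.27. *Ccr9*, the receptor that brings T cells to the small intestine, stood at 268 against 14.1 CPM and *Cxcr4* at 32.0 against 8.51 CPM. The lowest ratios among the 8 were those of *Cxcr5* (1.59 against 66.3 CPM), a receptor that guides cells into B cell follicles, *Ccr8* (1.19 against 28.2 CPM) and *S1pr1* (4.17 against 55.1 CPM), the receptor for exit from lymphoid organs.

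Ccl5-high cells of the spleen had higher levels of 4 of the 10 genes by at least 2-fold and of 1 lower, beside 2.94% and 5.88% of the 8119 genes compared. *Rgs16* stood at 64.8 CPM (48.8 to 84.4) in Ccl5-high cells and 12.0 CPM (9.79 to 14.6) in the others, a ratio of 5.39 (3.81 to 7.56), and 0.283% of genes had a higher ratio. *Rgs1* stood at 623 CPM (571 to 679) and 223 CPM (213 to 234), a ratio of 2.79 (2.53 to 3.08). *Dusp6* stood at 38.9 CPM (26.8 to 54.6) and 15.8 CPM (13.2 to 18.7), and *Dusp5* at 164 CPM (138 to 193) and 76.1 CPM (70.3 to 82.3). Their ratios were 2.47 (1.63 to 3.64) and 2.15 (1.78 to 2.59), and both came below 2-fold when cells were thinned (log2 ratios of 0.88 and 0.87). The others pool unlike clusters. Of these, cluster 5, led by *Lgals3* and *Cxcr6*, overlapped the Ccl5-high cells in *Dusp6* (32.3 CPM, 22.6 to 44.7) and *Dusp5* (128 CPM, 108 to 151). It did not overlap them in *Rgs16* (28.7 CPM, 19.6 to 40.5) or *Rgs1* (464 CPM, 425 to 506). All 3 Treg cell markers moved with this division: *Foxp3* stood at 2.36 CPM in Ccl5-high and 56.2 CPM in other splenic cells, *Il2ra* at 43.6 and 168 CPM and *Ikzf2* at 82.5 and 238 CPM, and the counts of 4 and 1 were the same without cells with a *Foxp3* UMI.

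*Rgs10* moved the other way, at 79.0 CPM (61.2 to 100.3) in splenic Ccl5-high cells and 263 CPM (253 to 275) in the rest, 3.34-fold lower (2.62 to 4.32). Within the rest, cluster 5 had *Rgs10* at 107 CPM (88.3 to 128), an interval that overlapped that of the Ccl5-high cells. At equal depth it was found in 13.8% of Ccl5-high cells and 36.1% of the rest, while *Rgs1* was found in 62.1% and 25.7%. *Dusp2* (708 against 411 CPM, ratio 1.72, 1.58 to 1.88), *Rgs2* (36.5 against 23.6 CPM, ratio 1.55, 1.02 to 2.27) and *Dusp1* (170 against 122 CPM, ratio 1.39, 1.16 to 1.65) were higher by less than 2-fold. Their thinned shares were apart for *Dusp2* (69.0%, 60.8 to 76.4, against 49.4%, 46.7 to 52.2). The intervals overlapped for *Dusp1* (31.0%, 23.6 to 39.2, against 24.9%, 22.6 to 27.3) and *Rgs2* (5.52%, 2.41 to 10.6, against 4.84%, 3.74 to 6.15). The *Rgs2* level of Ccl5-high cells rests on 31 UMIs, with up to 7 in a cell. The intervals of *Dusp4* (9.43 against 13.95 CPM, ratio 0.285 to 1.38) and *Dusp10* (31.8 against 24.4 CPM, ratio 0.838 to 1.95) held 1.

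Within the small intestine, Ccl5-high cells were compared with the *Il17a*-led cluster. *Dusp10* and *Rgs16* were at least 2-fold higher and *Dusp4* and *Rgs10* at least 2-fold lower, that is 2 and 2 of 10 beside 4.48% and 5.66% of the 6870 genes compared. *Dusp4* stood at 11.9 CPM (8.92 to 15.7) in Ccl5-high cells and 47.2 CPM (32.3 to 66.6) in the others, 3.95-fold lower (2.46 to 6.25). *Rgs10* stood at 164 CPM (152 to 176) and 397 CPM (351 to 447), 2.42-fold lower (2.10 to 2.79). *Rgs10* was thus lower in the Ccl5-high cells of both tissues.

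*Dusp10* stood at 68.9 CPM (61.3 to 77.1) in intestinal Ccl5-high cells and 28.0 CPM (16.9 to 43.7) in the others, a ratio of 2.46 (1.55 to 4.14). *Rgs16* stood at 25.03 CPM (20.5 to 30.2) and 10.3 CPM (4.15 to 21.3), a ratio of 2.43 (1.14 to 6.18) that rests on 7 UMIs in the others. The ratio of *Rgs16* came below 2-fold when G2/M cells were kept (log2 0.83) or cells were thinned (log2 0.96). *Dusp5* (362 against 246 CPM, ratio 1.47, 1.25 to 1.74) and *Dusp2* (585 against 416 CPM, ratio 1.41, 1.24 to 1.60) were higher by less than 2-fold. *Rgs1* was nearly level at 1729 and 1884 CPM, a ratio of 0.918 (0.865 to 0.9746), and the intervals of *Dusp1*, *Dusp6* and *Rgs2* held 1. Treg cell markers moved with this division: *Foxp3* stood at 1.84 CPM in Ccl5-high and 44.2 CPM in other intestinal cells, with 21 of the 28 cells with a *Foxp3* UMI in the *Il17a*-led cluster. Intestinal cells with a *Foxp3* UMI had *Dusp4* at 73.7 CPM (36.8 to 132), and the count of genes past 2-fold stayed at 2 and 2 without them.

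**Figure D2:**
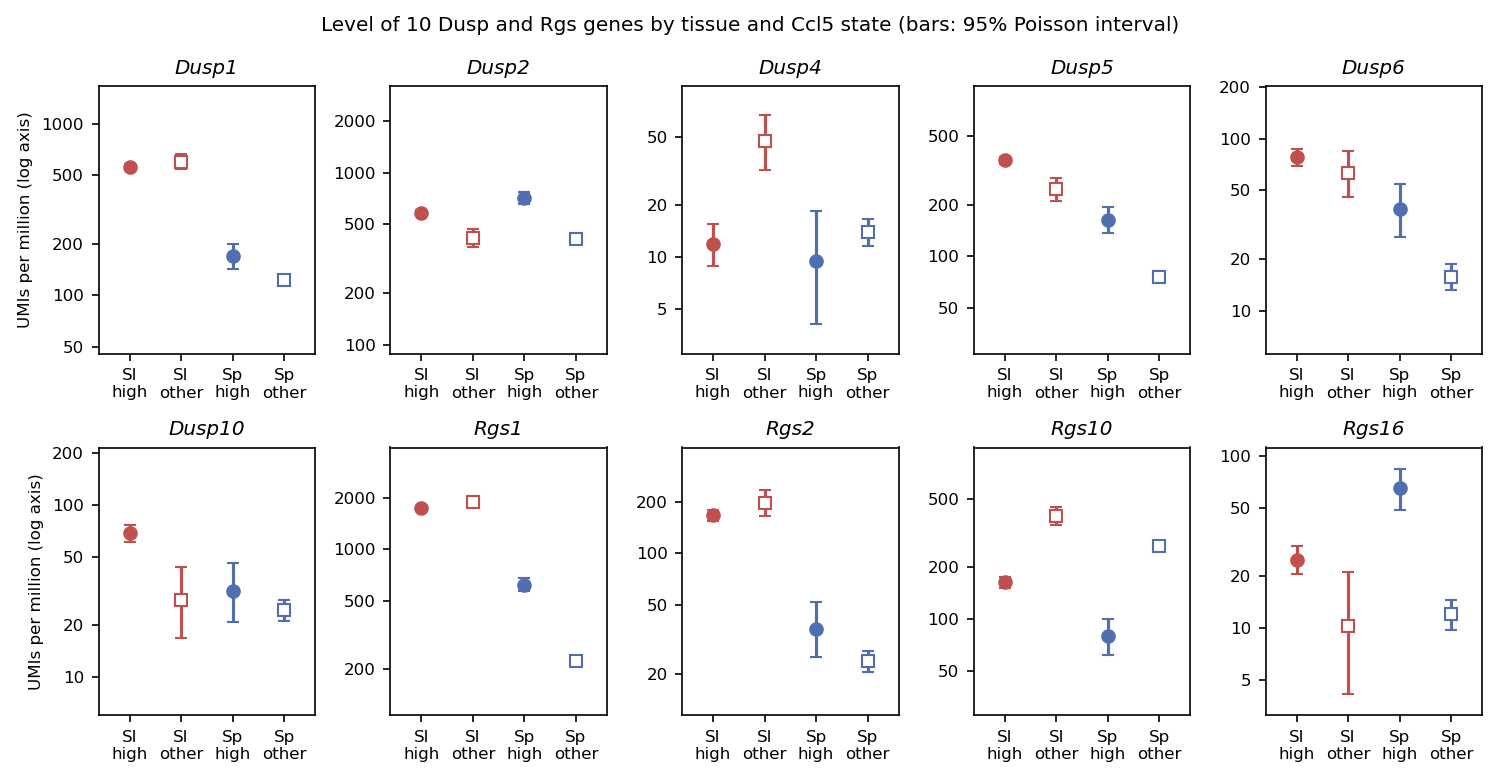
Level of each gene in CPM (log axis, scaled to each gene) in Ccl5-high (filled circles) and other cells (open squares) of the small intestine (SI, red) and spleen (Sp, blue). Bars are 95% Poisson intervals, with 1 library per tissue. *Rgs1*, *Rgs2* and *Dusp1* separate by tissue in both states, whereas *Rgs16* is highest in splenic Ccl5-high cells and *Rgs10* is lower in Ccl5-high than in other cells of both tissues.

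Because the state made up 86.8% of intestinal but 10.1% of splenic cells, the tissues were compared within each state. Among Ccl5-high cells 7 of the 10 genes were at least 2-fold higher and 1 at least 2-fold lower in small intestine, beside 10.3% and 8.1% of 6902 genes. *Rgs2* (167 against 36.5 CPM, ratio 4.58, 3.19 to 6.78), *Dusp1* (562 against 170 CPM, ratio 3.31, 2.80 to 3.94) and *Rgs1* (1729 against 623 CPM, ratio 2.77, 2.54 to 3.04) differed most. *Dusp5* (2.21), *Dusp10* (2.17), *Rgs10* (2.07) and *Dusp6* (2.001) were near the limit. *Rgs16* was 2.59-fold lower (1.84 to 3.61) in the Ccl5-high cells of the small intestine, at 25.03 against 64.8 CPM, whereas over all cells its ratio was 1.36. In alternatives chosen after seeing the data, 6 were higher and 1 lower without doublets or without cells with a *Foxp3* UMI, and 7 and 1 without the CD8 cells.

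Among the other cells 6 of 10 were at least 2-fold higher and 0 lower in small intestine, beside 11.6% and 10.4% of 8160 genes. *Rgs1* reached a ratio of 8.44 (7.85 to 9.07) and *Rgs2* of 8.32 (6.62 to 10.4), followed by *Dusp1* (4.90), *Dusp6* (4.02), *Dusp4* (3.38) and *Dusp5* (3.23). The ratio of *Rgs1* was therefore larger outside the state than within it, with intervals that did not overlap, while that of *Dusp10* (1.15, 0.676 to 1.84) held 1 outside the state. The cells outside the state are an *Il17a*-led cluster in the small intestine and 6 clusters in the spleen, so these are unlike mixtures. The counts of 6 and 0 were the same without doublets, *Foxp3* or CD8 cells, which were also left out after seeing the data.

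Across the 6 intestinal and 7 splenic clusters, *Rgs1* had the widest range for a gene that was well counted throughout. It ran from 27.7 CPM (17.7 to 41.2) in splenic cluster 7, led by *Cnn3* and *Bach2*, to 2151 CPM (2048 to 2257) in intestinal cluster 3, led by *S100a6* and *Ahnak*. In the spleen it was next highest in cluster 5 (464 CPM, 425 to 506; led by *Lgals3* and *Cxcr6*) after the Ccl5-high cluster 6. All 6 intestinal clusters, from 859 to 2151 CPM, lay above all 7 splenic clusters, whose highest was 623 CPM. *Dusp6*, *Dusp5* and *Rgs2* likewise had every intestinal above every splenic cluster, 4 of 10 in all beside 6.11% of 9034 genes, and 0 of 10 had every intestinal below every splenic cluster, beside 3.87%. The lowest intestinal clusters of *Dusp6*, *Dusp5* and *Rgs2* stood at 58.4, 234 and 126 CPM and their highest splenic ones at 38.9, 164 and 41.0 CPM. For *Dusp6* the intervals of those clusters overlapped (41.7 to 79.6 and 26.8 to 54.6 CPM). *Dusp1* nearly did, with 186 CPM in the intestinal cluster led by *Cd8b1* and 200 CPM in splenic cluster 4.

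The intestinal cluster led by *Cd8b1* and *Cd8a* was the lowest of the 6 for 7 of the 10 genes (*Dusp1*, *Dusp2*, *Dusp4*, *Dusp5*, *Dusp6*, *Rgs1* and *Rgs10*), beside 30.7% of the 6870 genes with at least 50 intestinal UMIs, and *Rgs1* stood there at 859 CPM (791 to 931). The immediate early list was also lowest there, at 3102 CPM against 5614 to 7634 CPM in the other intestinal clusters and 2863 to 3864 CPM in the splenic ones. *Rgs2* (131 CPM), *Dusp5* (234 CPM) and *Dusp6* (58.4 CPM) were above every splenic cluster there. Of the immediate early genes read by cluster, *Nr4a1* was too (81.8 CPM, against at most 66.2 CPM). *Fos* (171 CPM, against 232 CPM in splenic cluster 4) and *Jun* (137 CPM, against 268 CPM there) were not. The part of that list in these levels was not tested.

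*Rgs10* ran from 79.0 CPM in splenic cluster 6 to 593 CPM (545 to 645) in splenic cluster 4, which was led by *Pik3ip1*, *Ccr7* and *Txnip*, genes known from resting T cells. *Rgs16* had its extremes in the same clusters with the order turned, at 64.8 CPM in cluster 6 and 1.08 CPM in cluster 4, where 1 UMI was found in 210 cells (95% interval 0.027 to 6.01 CPM). *Dusp4* was highest in the intestinal *Il17a*-led cluster 4 (47.2 CPM) and in splenic cluster 2 (24.2 CPM), led by *Tnfrsf9* and *Foxp3*, and lowest in the intestinal *Cd8b1*-led cluster (1.46 CPM, 1 UMI). Splenic cells with a *Foxp3* UMI had *Dusp4* at 26.2 CPM (20.04 to 33.6).

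In the order of the 13 clusters, the intervals of neighbours overlapped in all 12 steps for *Dusp4*, *Dusp6* and *Dusp10*. They overlapped in 11 of 12 for *Dusp2*, *Rgs2* and *Rgs16*, in 10 for *Rgs10*, 9 for *Dusp1*, 8 for *Dusp5* and 5 for *Rgs1*. Overlap of such intervals does not show that neighbours were level, and overlaps were not counted for other genes.

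**Figure D3:**
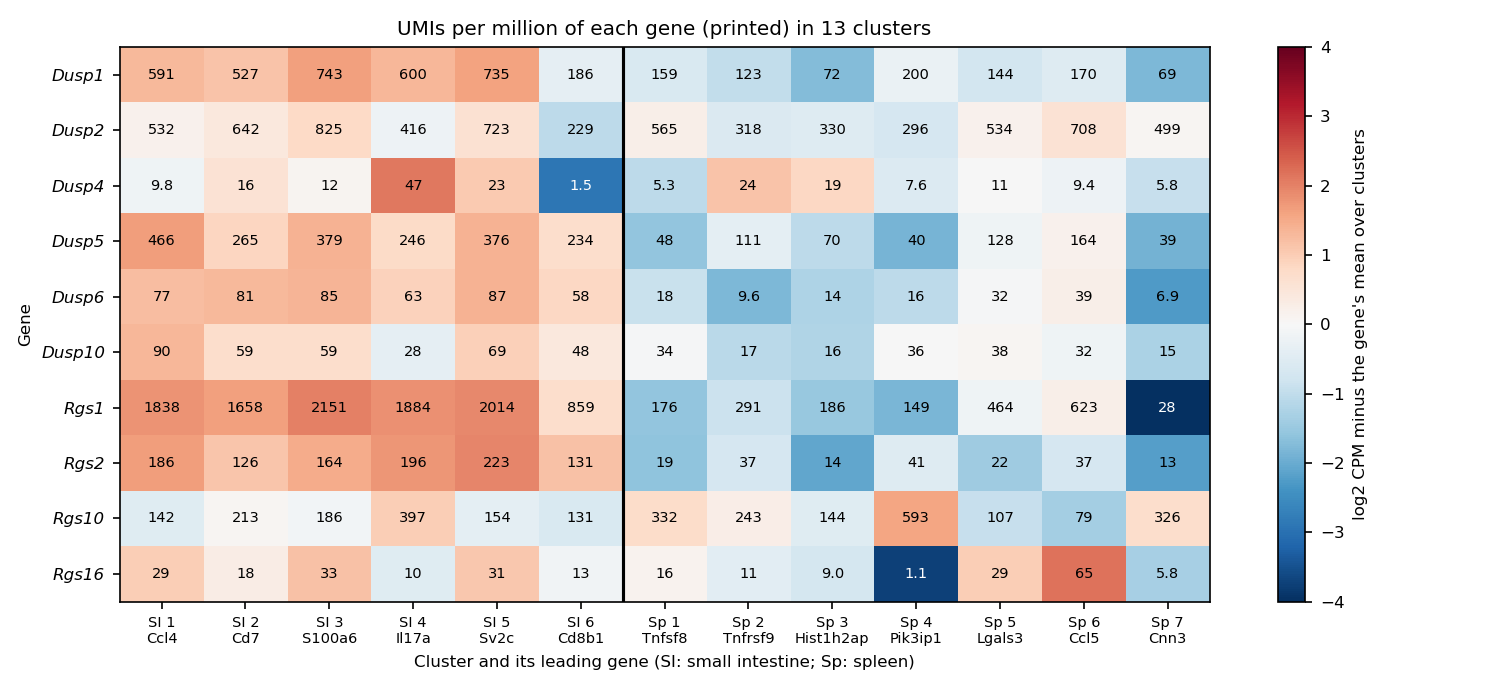
Level of each gene (rows; CPM printed) in the 6 intestinal (SI) and 7 splenic (Sp) clusters (columns, with the leading gene), coloured by the log2 level minus the mean of that gene over the 13 clusters. *Rgs1* is red in all intestinal clusters and darkest blue in splenic cluster 7, and *Rgs10* and *Rgs16* have opposite colours in splenic clusters 4 and 6.

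Over the 13 clusters the log2 levels of *Dusp5* followed those of *Rgs1* (Pearson's r = 0.95) and *Dusp6* those of *Rgs1* (0.95) and *Dusp5* (0.92). Those of *Dusp1* followed *Rgs2* (0.92). These values include the gap between tissues. Within the 7 splenic clusters r was 0.86, 0.81, 0.67 and 0.79 for the same pairs, and within the 6 intestinal clusters 0.60, 0.75, 0.70 and 0.63. *Rgs10* ran against *Rgs16* in both tissues (r = -0.86 in spleen and -0.54 in small intestine). It also ran against *Dusp5* (-0.87 and -0.43) and *Dusp6* (-0.67 and -0.20). Against *Dusp10* it did so in small intestine (-0.78) but hardly in spleen (-0.04). Clusters of a tissue share 1 library, and they differ in depth, so these are descriptions.

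The 3 genes closest in pattern to each of the 10 were taken from 6081 others. Unless said otherwise, r is over the clusters of both tissues and includes the gap between them. Those of *Dusp1* were the predicted gene *Gm8797*, *Ier2*, an immediate early gene, and *Pnrc1* (r of 0.98 each), and those of *Rgs2* were *Csrnp1*, *Ppp1r15a* and *Tnfaip3* (0.97 each). *Rgs1* was most like *Dok1*, an adaptor that dampens tyrosine kinase signals (r = 0.99, and 0.79 and 0.98 within small intestine and spleen), *Osbpl3* (0.98, but -0.31 within small intestine) and *Zbtb38* (0.98). *Dusp5* was most like *Lilr4b* (r = 0.99, within tissues 0.87 and 0.99), *Dgat1* (0.98) and *Lilrb4a* (0.98), the first and last being related genes between which reads may be shared. *Dusp6* was most like *Neat1*, *Mta3* and *Mgea5* (0.97 each), and *Dusp10* most like *Mfsd6* (0.98), *Tmem127* (0.94) and *Gpr171* (0.93). Likeness was lower for *Rgs10* (*Inpp4b*, a phosphoinositide phosphatase gene, 0.91; *Rpl23a-ps3*, 0.90, and *Gm9493*, 0.88), *Rgs16* (*Perp*, *Mllt6* and *Entpd1*, 0.87 to 0.89) and *Dusp4* (*N4bp1*, *Rnf11* and *Ctcf*, 0.84 to 0.88). It was lowest for *Dusp2*, with *Fyn*, a kinase of T cell receptor signalling (0.85), *Rab11b* and *Tars2* (0.82 each). This order is that over both tissues, since *Dusp2* and *Fyn* had r of 0.89 within small intestine and 0.92 within spleen. Within small intestine, after *Osbpl3*, r was lowest for *Dusp6* with *Mgea5* (0.29), *Rgs2* with *Tnfaip3* (0.53) and *Rgs1* with *Zbtb38* (0.53). It was higher for all the others.

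Single cells carried more of the 10 genes at once in the small intestine. At 2000 UMIs per cell, a mean of 3.37 genes had a UMI in an intestinal cell and 1.73 in a splenic cell. At least 4 were found together in 46.3% (43.4 to 49.2) of 1170 intestinal and 5.33% (4.23 to 6.61) of 1446 splenic cells, and 0 in 1.28% (0.719 to 2.11) and 12.2% (10.6 to 14.0). Without thinning the means were 4.49 and 3.14. Splenic Ccl5-high cells lay between, with a mean of 2.30 and 4 or more genes in 14.5% (9.19 to 21.3), against 1.66 and 4.30% (3.27 to 5.55) in other splenic cells. In the small intestine the states were alike, with means of 3.36 and 3.44. No cell type here should lack these genes, so free RNA could not be read from a negative cell type. Median *Ccl5* levels of 842 CPM in the *Il17a*-led intestinal cluster and 0 in 5 of the 7 splenic clusters are the nearest measure, and its part in the shares was not tested.

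**Figure D4:**
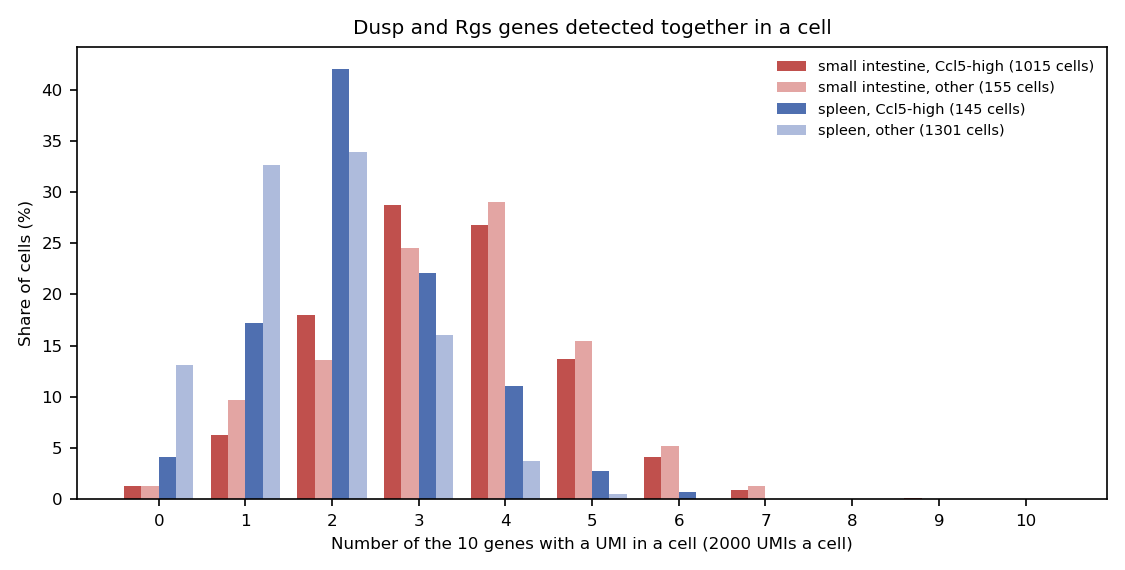
Share of cells (bars, in %) by the number of the 10 genes with a UMI, after thinning to 2000 UMIs per cell, for Ccl5-high and other cells of each tissue. Intestinal cells of both states centre on 3 and 4 genes and other splenic cells on 1 and 2, with splenic Ccl5-high cells between them.

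The median pair of the genes met in cells about as often as the separate shares would give. The ratio of cells with both genes to the product of the shares had a median of 1.04 over 43 of 45 pairs in small intestine and 1.03 over 34 pairs in spleen, beside 1.001 in both tissues for pairs of other genes found in at least 5% of cells. In small intestine no pair (0 of 43) had an interval clear of 1, and 29 had a ratio above 1. These intervals take no account of the fixed shares and are too wide for genes found in many cells. They therefore cannot show that such pairs met no more often than their shares give. *Dusp1* and *Rgs1* met in 625 cells where the product of shares gives 595, and *Dusp2* and *Rgs1* in 603 where it gives 581. *Dusp1* and *Dusp2* were found together in 36.6% of intestinal cells, a ratio of 1.07 (0.971 to 1.18).

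In the spleen 5 of 34 pairs had intervals clear of 1. The share of pairs of other genes with such intervals was not counted, so this number is not read as unusual. *Dusp1* met *Rgs2* in 30 cells where the product of shares gives 18.1, a ratio of 1.66 (1.12 to 2.36), and *Dusp4* in 14 where it gives 7.4, a ratio of 1.89 (1.03 to 3.17). *Rgs10* met some of the others less often, with ratios of 0.800 (0.661 to 0.961) for *Rgs1*, 0.482 (0.208 to 0.949) for *Dusp6* and 0.377 (0.138 to 0.820) for *Rgs16*. Among the splenic cells outside the Ccl5-high state alone, the same ratios were 0.837 (0.682 to 1.02), 0.484 (0.195 to 0.998) and 0.433 (0.140 to 1.01). There 2 of 33 pairs kept an interval clear of 1, *Rgs10* with *Dusp6* and *Dusp1* with *Rgs2* (1.66, 1.08 to 2.43). *Rgs10* and *Rgs1* met there in 101 cells where the product of shares gives 121. Since the intervals take no account of the fixed shares, an interval that holds 1 does not show that a pair met as often as its shares give. All 34 pairs were read at a 95% level with no adjustment for their number.

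**Figure D5:**
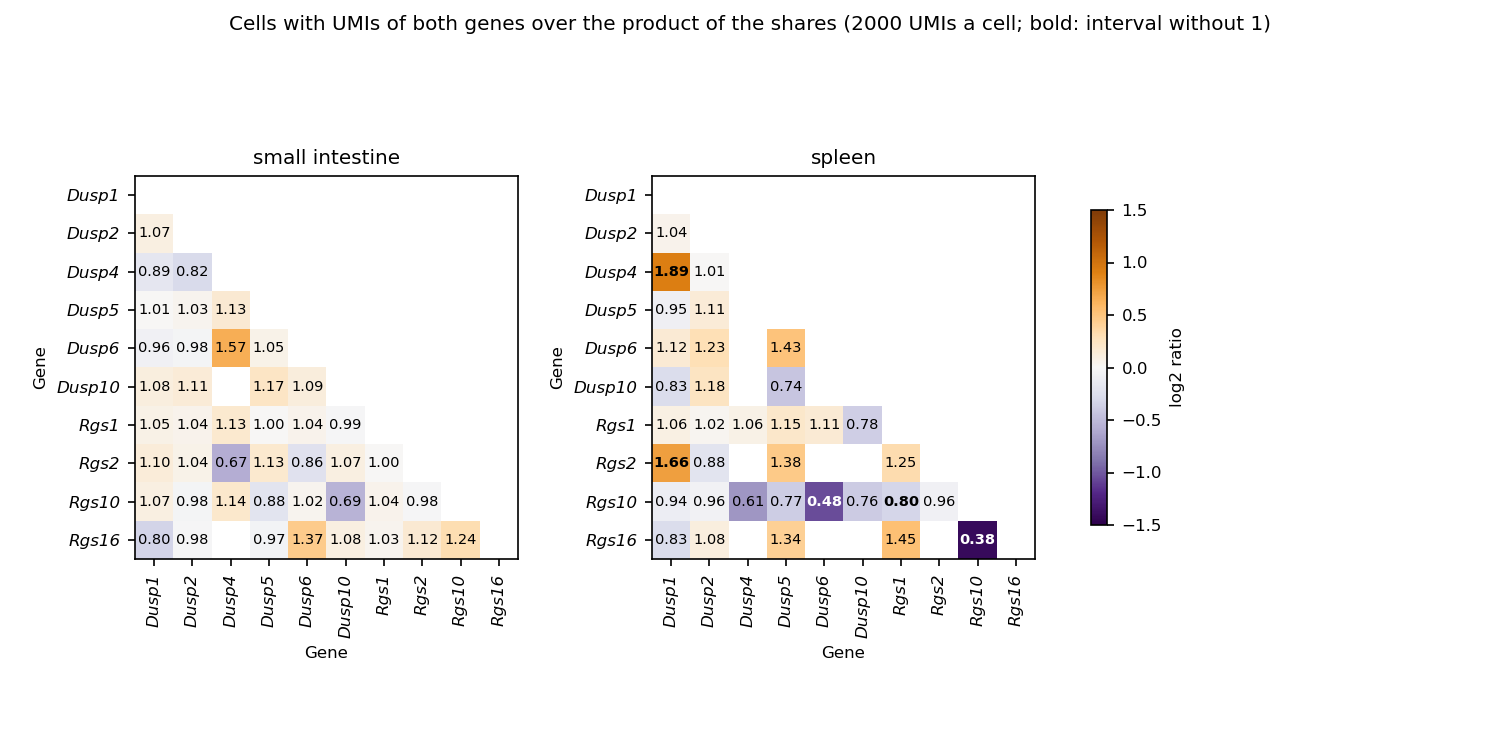
Ratio of the number of cells with UMIs of both genes to the product of their shares, for each pair in small intestine (left, 1170 cells) and spleen (right, 1446 cells) after thinning to 2000 UMIs, coloured by its log2. Blank squares are pairs with fewer than 5 cells given by the product of shares and bold values have intervals without 1. Most values lie near 1, and the 3 bold values below 1 in the spleen all belong to *Rgs10*.

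Detection of the genes was also read beside 8 partner genes in the thinned cells. *Dusp1* was found in 66.7% (62.6 to 70.7) of intestinal cells with a *Fos* UMI and 52.5% (48.5 to 56.5) of those without, and in 34.8% (29.1 to 40.9) and 23.4% (21.05 to 26.0) of splenic cells. *Jun* gave the same order in both tissues. *Dusp2* went with *Nr4a1*, an immediate early gene of T cell receptor signalling, at 66.1% against 55.6% in small intestine and 63.2% against 50.3% in spleen. For *Dusp1* and *Dusp2*, these were the partners with intervals apart in both tissues.

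In the spleen *Rgs1* was found in 33.6% (29.9 to 37.4) of cells with an *Il10* UMI and 26.0% (23.1 to 29.2) of those without, and in 48.1% (39.3 to 57.0) and 27.5% (25.1 to 29.95) for *Ifng*. *Rgs10* ran the other way, at 26.0% (22.6 to 29.6) and 40.0% (36.6 to 43.4) for *Il10* and 18.3% (12.1 to 26.0) and 35.4% (32.8 to 38.1) for *Ifng*, and was more often found with *Fos* (42.8% against 31.9%). *Rgs16* was found in 10.7% (5.97 to 17.3) of splenic cells with an *Ifng* UMI, the gene of the effector cytokine interferon gamma, and in 2.51% (1.73 to 3.51) of the rest. *Rgs2* had overlapping intervals (5.34% against 4.87%). Beside *Ccl5*, splenic *Rgs1* (44.0% against 23.6%), *Rgs16* (6.67% against 1.92%) and *Rgs10* (26.4% against 36.8%) went the same ways, with intervals apart. None of these shares was split by Ccl5 state. In the small intestine the intervals overlapped for all 4 *Rgs* genes beside *Ifng*, at 87.2% against 85.2% for *Rgs1*, 28.5% against 24.8% for *Rgs2*, 28.3% against 28.6% for *Rgs10* and 5.22% against 3.803% for *Rgs16*. Beside *Ccl5* they were apart there for *Rgs1* (86.4% against 65.2%) and *Rgs10* (27.8% against 60.9%), in the splenic directions. They overlapped for *Rgs2* and *Rgs16*. Few intestinal cells lacked *Ccl5*, since 1147 of 1170 had a UMI.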

How the data were processed

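IL-10-producing CD4+ T cells from small intestine and spleen of anti-CD3-treated reporter mice were sequenced with the 10X technology, 1 library per tissue. The authors trimmed the reads (Trimmomatic), aligned them with Cell Ranger and counted UMIs per gene and barcode, and the deposited values are whole-number counts with no normalization. The study's methods name Mm10, and the submitters' processing notes list mm10 and mm8, of which the first matches the GRCm38 annotation (GENCODE vM21) used for positions. The gene and barcode files hold names only.

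Low-quality cells were removed at 3 MAD from the tissue median (on the low side for log-scaled UMI and gene numbers, on the high side for the mitochondrial share), followed by those that cyclone (1000 iterations) assigned to G2/M. Size factors pooled over cells normalized the genes that averaged 0.05 counts or more. Highly variable genes (biological variance over 0.05, false discovery rate under 0.05), without the 10 members, gave 20 principal components and Louvain clusters of a shared neighbour graph (10 neighbours; scran 1.30.0, scuttle 1.12.0, bluster 1.12.0, Matrix 1.6.5, R 4.3.3). Of 126 highly variable genes in spleen and 65 in small intestine, 3 and 1 were members and were left out. Clusters are described by their 3 leading genes among those found in at least 25% of their cells. Doublets were called with Scrublet (scanpy 1.11.5) and left out only as an alternative. Python 3.11.15 with numpy 2.4.6, scipy 1.17.1, pandas 2.3.3 and matplotlib 3.10.9 was used.

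Counts were summed over cells. Exact 95% intervals of ratios are binomial, given the summed UMIs of a gene, and genes with at least 50 UMIs over both groups were compared at a limit of 2-fold. Thinning to 2000 UMIs per cell used random seed 1. Intervals of pairs treat the number of cells with both genes as a Poisson count. They ignore that the shares are fixed, so they are too wide for genes found in many cells. Pairs with at least 5 cells given by the product of shares were read. Likeness is Pearson's r of log2(CPM + 10) over the 13 clusters among genes with at least 200 UMIs. With 1 library per group no p-value was computed. The intervals were checked on simulated data. Named were all 10 members, the 3 genes most like each, the leading genes of clusters, up to 3 genes per direction of each list past 2-fold (1 receptor gene is not reported here) and 8 partner genes, beside markers. The members and gene lists were chosen with earlier results of these data known. Other data of the study (SMART-seq2, bulk, human) were not analysed here.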

Additional observations from a re-analysis of the deposited data

Results flagged for a closer look

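*Rgs1* had opposite directions in the tissues when Ccl5-high cells were compared with other cells. Its log2 ratio was 1.48 (623 against 223 CPM) in the spleen and -0.12 (1729 against 1884 CPM) in the small intestine. The median log2 ratio over all genes compared was -0.03 and -0.15, so the intestinal value of *Rgs1* lay near that of the typical gene. The difference between the tissues was not tested, since each has 1 library. Over the alternatives the splenic value stayed between 1.42 and 1.53, while the intestinal value lay between -0.22 and 0.04 and so on both sides of 0.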

How the results depend on the processing

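The count of genes past 2-fold between the tissues was 6 under all 10 alternatives. Between Ccl5-high and other cells it fell from 5 to 3 in the spleen and from 4 to 2 in the small intestine, both when cells were thinned to 2000 UMIs and when at least 200 UMIs were required, which by construction leaves fewer UMIs or fewer genes. It stayed within 1.5 times under the others, as did the counts between the tissues within each state under 3 alternatives chosen after seeing the data. A cluster limit of 500 CPM of *Ccl5* left no other cells in the small intestine and gives no value. The mean number of genes per cell followed the depth: 3.37 in small intestine became 2.92 at 1500 UMIs and 4.49 without thinning, and 1.73 in spleen became 1.41 and 3.14. Without cells with *Cd8a* and *Cd8b1* UMIs the intestinal mean was 3.48. Of the values of single genes, 344 stayed within the interval of the main value, 26 left it and 0 of those past 2-fold changed direction. All 60 values past 2-fold between the tissues stayed past it, as did 68 of 70 in the spleen and 50 of 52 in the small intestine between states. Setting the median log2 ratio of all genes to 0 moved the intestinal state values by 0.15. Scarce genes (*Dusp4*, *Rgs16*) limit the comparisons most, with 7 *Rgs16* UMIs in other intestinal cells. No paired analysis was possible because each tissue has 1 library and no result comes from a test across samples.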

Other observations

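The cells left out as G2/M were measured too. The 61 intestinal ones had *Rgs1* at 1655 CPM (1530 to 1786), *Dusp1* at 520 CPM (451 to 596) and *Dusp5* at 204 CPM (162 to 254), against 1749.8, 567 and 346 CPM in the kept cells. The 179 splenic ones had *Dusp1* at 120.5 CPM (104 to 138), *Dusp5* at 95.4 CPM (81.0 to 112), *Rgs1* at 334 CPM (307 to 364), against 260.3 CPM in the kept cells, and *Rgs10* at 168 CPM (149 to 189) against 246 CPM. The tissue order of these genes was the same among them except for *Rgs10*, which stood at 214 CPM (171 to 265) in the intestinal G2/M cells.

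The 121 intestinal cells with *Cd8a* and *Cd8b1* UMIs had *Rgs1* at 818 CPM (749 to 890.2), *Dusp1* at 181 CPM (150 to 217) and *Dusp2* at 215 CPM (181 to 254). The 280 splenic cells with a *Foxp3* UMI had *Dusp2* at 302 CPM (280 to 326) and *Rgs1* at 230.2 CPM (211 to 250.5).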
